A study of Mus musculus with 2 samples.

Results

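Lung venous endothelial cells (ECs) were described in 2 libraries of single mouse lung cells, where 714 of the 15029 ECs met a rule on their own counts. A venous EC had 1000 to 5000 detected genes, under 20% of its unique molecular identifiers (UMIs, each marking 1 captured RNA molecule) from mitochondrial genes, and at least 0.5% from the nuclear RNA Malat1. It held at least 2 UMIs of the endothelial genes Pecam1 and Cdh5 and at least 4 UMIs of Slc6a2, Amigo2, Mmp16 and Tmem45a together. That venous sum had to exceed the sum of the arterial genes Gja5, Stk32a, Sfrp1 and Cytl1, and the aerocyte genes Ednrb, Fibin and Apln could add up to at most 3 UMIs. The rule chose the cells on their measured expression, so the levels of its genes are given below as a description. It found 349 members among 7921 control ECs and 365 among 7108 ECs of the B16-F10 library.

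Both groups were wild-type C57BL/6 mice, males of 8 to 10 weeks by the study's methods. Control mice received 100 µl of phosphate-buffered saline through the tail vein, and the others 400000 cells of B16-F10, a mouse skin melanoma line labelled with a green dye. Lungs were digested after 6 h and Pecam1+ Ptprc- cells were collected by sorting. The B16-F10 sample also received some of the dyed melanoma cells. Mice of a treatment were pooled, 2 by the labels and 3 by the methods, so each group was a single library and no test between the groups was possible.

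Veins collect blood from the capillaries and, with the postcapillary venules, are the main place where leukocytes leave the blood in inflammation. Their ECs keep an identity set by the transcription factor Nr2f2, store von Willebrand factor (Vwf) and P-selectin (Selp) in granules, and can show adhesion molecules quickly when stimulated. In mouse lung they also carry the noradrenaline transporter Slc6a2, which takes the amine up from the blood.

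Values are UMIs summed over the members of a library, per 1000000 UMIs of those members (CPM), and ratios are log2 of B16-F10 over control. Ranges in parentheses are exact 95% intervals, and for differences approximate ones. They cover counting error only, and neither the spread between mice nor that between cells. The libraries held 85794655 and 104978816 UMIs over all barcodes. The venous sums held 3611421 and 4136263 UMIs, with a median of 9980 UMIs and 3604 genes per control member and of 11230 UMIs and 3828 genes per B16-F10 member. General capillary ECs were chosen by rule, with at most 1 UMI each of the venous, arterial and aerocyte genes. They also needed at least 2 UMIs of Gpihbp1, Kit, Glp1r and Lpl together. They numbered 5155 and 4792 and held a median of 7306 and 8522 UMIs. No barcode was shared between the members of the libraries, and 14 were shared among all ECs. The members made up 4.41% of the control ECs (3.96 to 4.88) and 5.14% of those after B16-F10 (4.63 to 5.67), a difference of 0.729 percentage points (0.0475 to 1.42). With every cell thinned to 3000 UMIs the shares were 4.09% and 3.81%, in the reverse order. The cells that passed the limits also changed there, to 7752 control and 7421 B16-F10 ECs. The cause of the reversal was not tested.

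**Figure D1:**
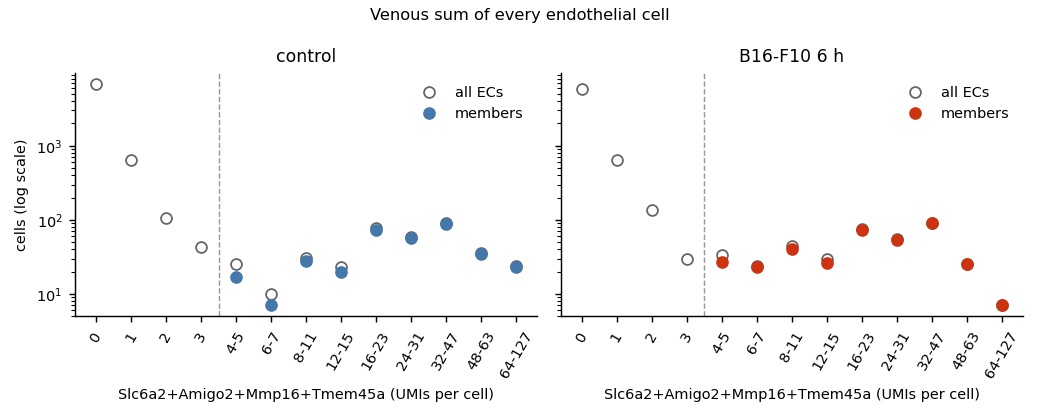
Number of cells (log scale) by their summed UMIs of Slc6a2, Amigo2, Mmp16 and Tmem45a, for all ECs (open) and for the members (filled), in the control and B16-F10 libraries. The dashed line marks the threshold of 4 UMIs, below which 34 control and 25 B16-F10 cells at 3 UMIs passed the other limits, while 11 and 13 members sat at 4.

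The venous sum had a median of 28 UMIs per control member, with quartiles of 18 and 41 and a highest value of 108. In the B16-F10 library its median was 22, the quartiles were 12 and 36, and the highest value was 94. Few members lay near the threshold, as the plot of the venous sum shows. Among the 11 control members at 4 UMIs, 72.7% held Nr2f2 and 63.6% Prss23, against 35.3% and 58.8% of the 34 cells just outside at 3 UMIs. Bst1 went the other way, with 9.09% at 4 UMIs and 20.6% at 3. In the B16-F10 library Nr2f2 was present in 84.6% of the 13 members at 4 UMIs and in 68.0% of the 25 cells at 3. Prss23 was present there in 84.6% and 60%, and Bst1 in 61.5% and 20%, both more frequent at 4 UMIs. The median depth was 13189 UMIs at 4 and 7851 at 3 in the control, and 10658 and 10175 after B16-F10. The part of depth in these shares was not tested. At a common depth of 3000 UMIs, 196 of 346 control members (56.6%) and 142 of 361 B16-F10 members (39.3%) kept a venous sum of 8 or more. The difference was -17.3 percentage points (-24.4 to -9.96). The rule chose members on this sum at full depth, where the median was 9980 UMIs in control and 11230 UMIs in B16-F10 members. The difference is thus a description, and the part of the rule and of depth in it was not tested.

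Markers that the rule did not use were present in most members. Vwf, the carrier of clotting factor VIII, had a UMI in 348 control members (99.7%) and 362 B16-F10 members (99.2%), against 38.2% and 53.6% of general capillary ECs. Nr2f2 had one in 85.4% and 91.8% of the members and in 9.08% and 11.6% of the capillary cells. Prss23, a serine protease, was present in 95.7% and 94.8% of the members and in 21.4% and 20.7% of the capillary cells. Bst1, an ectoenzyme on the cell surface, was present in 73.4% and 81.6%, against 1.13% and 1.57%. Ackr3, a scavenger receptor for the chemokine Cxcl12, was the remaining marker given for these cells, and was found in 85.4% of control and 95.1% of B16-F10 members, against 27.7% and 48.3% of the capillary cells. Each of these markers was more frequent in the members than in the capillary cells in both libraries.

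Slc6a2 (chr8:92960079-93001667, GRCm38, the build also called mm10) was the member gene that differed most from the capillaries. Its level was 2308 CPM in control and 1590 CPM in B16-F10 members, against 1.55 and 1.77 CPM in general capillary ECs. A control member held a median of 21 Slc6a2 UMIs and a B16-F10 member 15. Mmp16, a membrane-bound matrix protease, stood at 232 and 175 CPM, and Tmem45a, a transmembrane protein, at 114 and 149 CPM. Amigo2, an adhesion protein, stood at 324 and 296 CPM. Since the capillary class was allowed no more than 1 UMI of these 4 genes, the size of the gap follows from the rules.

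Of the 15 genes that stood highest over the general capillaries in control members, 3 were genes of the rule (Slc6a2, Mmp16 and Tmem45a) and 1, Cytl1, was used by the rule on the arterial side. The others included Cpe, a peptide-processing carboxypeptidase, with 361 CPM in control veins and 0.747 CPM in capillaries. Ptgs2, the inducible cyclooxygenase, had 83.6 CPM, and Pla2g4a, the phospholipase that releases its substrate arachidonic acid, had 110 CPM. The secreted protein Fgl2 stood at 251 CPM, the growth factor binding protein Igfbp5 at 271 CPM, and the transcription factors Foxc1 and Zfpm2 at 54.3 and 237 CPM. Ch25h, the enzyme that makes 25-hydroxycholesterol, had 58.4 CPM in control veins and 0.309 CPM in capillaries. Some of these genes were also abundant in arterial ECs of the control. Cytl1 had 893 CPM there and 264 CPM in veins, Cpe had 280 CPM, and Myof, a membrane repair protein, had 225 CPM beside 244 CPM in veins. The arterial class was chosen by Gja5, Stk32a, Sfrp1 and Cytl1, so the order for Cytl1 follows in part from the rules.

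**Figure D2:**
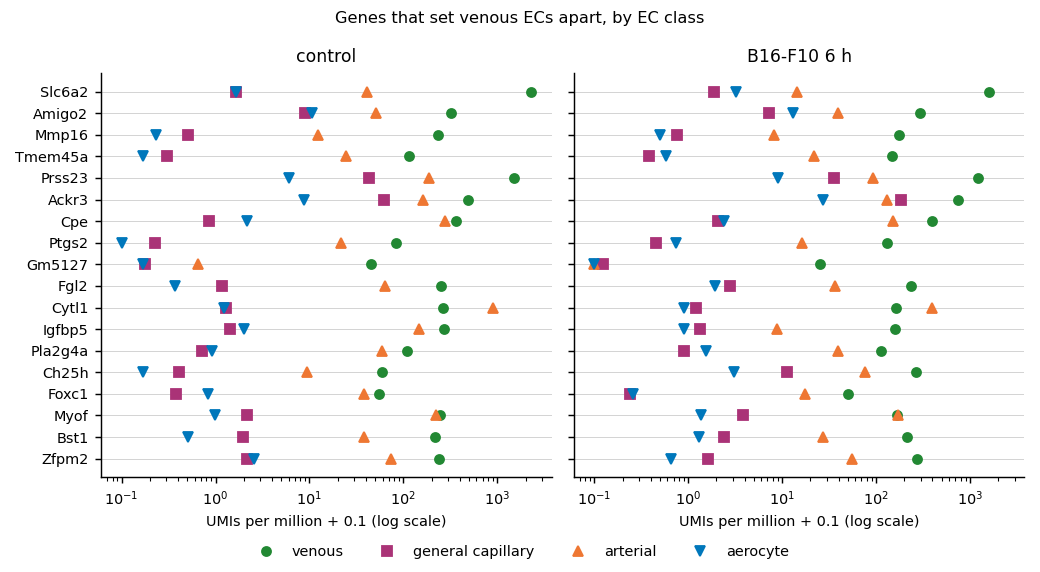
Level (CPM plus 0.1, log scale) of the 6 venous markers and of the genes highest in venous over general capillary ECs, in venous, general capillary, arterial and aerocyte ECs of each library. Venous cells lie above the capillary and aerocyte cells for every gene shown. Arterial cells lie above the venous ones for Cytl1 in both libraries and close to them for Myof. The genes were chosen as venous markers or for their excess over the capillaries in the control. Arterial cells needed a sum of Gja5, Stk32a, Sfrp1 and Cytl1 above their venous sum. Aerocytes were chosen by Ednrb, Fibin and Apln with a limited venous sum. These orders thus follow in part from the rules.

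In the B16-F10 library 9757 genes had at least 50 UMIs over both venous sums and were taken as measured. Of these, 223 were at least 2-fold higher than in the control (2.29%) and 105 at least 2-fold lower (1.08%). The counting interval lay off 0 for all 223 and all 105, and the median log2 ratio of all measured genes was -0.03. Without the highest cell of each gene in each library, 208 of the 223 and 102 of the 105 stayed past 2-fold. In 15 of the 223 genes over 50% of the B16-F10 UMIs came from 1 cell. Of the 217 higher genes that were also measured in general capillary ECs, 138 were at least 2-fold higher there too, and so were 38 of 103 lower genes in the downward direction. The 2 groups of cells come from the same 2 libraries, so these counts are no independent observation of the response.

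A pair of B16-F10 members stood apart from the rest and carried several of the largest ratios. One held 8589 haemoglobin UMIs among its 14510 UMIs, with 10 UMIs of Slc6a2 and 10 of Vwf. The red cell genes Hba-a1, Hba-a2, Hbb-bs and Hbb-bt had log2 ratios of 2.33 to 2.76 with this cell, and their median was 0.76 without the highest cell of each gene. The other held 220 of the 223 UMIs of Lsamp, all 57 of Ahsg and 61 of the 62 of Fgf14, and had 11 UMIs of Tmem45a but none of Slc6a2 or Vwf. Lsamp, with a log2 ratio of 6.02, came to 0.39 without its highest cell. Neither set of genes is described further as a response of the veins.

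Adhesion molecules for leukocytes were led by Selp, the P-selectin that slows leukocytes on the vessel wall (chr1:164115264-164150026). It had 198 UMIs in control members (54.8 CPM) and 1240 UMIs after B16-F10 (300 CPM), a log2 ratio of 2.45 (2.23 to 2.67). It was found in 60 of 349 control members (17.2%) and 143 of 365 B16-F10 members (39.2%), against 0.291% and 3.84% of capillary ECs. Most members had no Selp UMI in either library, and the highest held 18 UMIs in the control and 132 after B16-F10. Platelets also make P-selectin, and in the 314 and 324 members without a UMI of 5 platelet genes the level was 58.3 and 312 CPM, a ratio of 2.42 (2.20 to 2.65). When cells with 2 or more UMIs of other cells' markers, Lyve1 and red cell genes aside, were left out, 125 and 70 members remained. Selp had a ratio of 1.29 in them. Sele, the E-selectin, had 4 and 96 UMIs, with 51 of the 96 in 1 cell and a UMI in only 10 members.

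Vcam1, a ligand for integrins on leukocytes, was already present in the control veins at 362 CPM and stood at 601 CPM after B16-F10, a ratio of 0.73 (0.64 to 0.83). Icam1, another such ligand, had 314 and 426 CPM, a ratio of 0.44 (0.33 to 0.55). In 24 measured genes of the adhesion list, 2 were at least 2-fold higher, against 2.29% of all measured genes, and none lower. The median ratio of the list was 0.20, against -0.03 over all measured genes. In general capillary ECs 4 genes of the list were at least 2-fold higher, with a median of 0.32. Of 40 chemokine, cytokine and growth factor genes only 17 were measured in the members. Inhbb alone was at least 2-fold higher, against 2.29% of all measured genes, and none was at least 2-fold lower. In general capillary ECs 2 of the 17 were at least 2-fold higher. Inhbb, a subunit of activin B, had 1 control UMI and 54 B16-F10 UMIs, in 1 and 28 members. Ccl2, Cxcl1, Il6, Csf3 and Cxcl10, named after their values were seen, had between 0 and 7 UMIs in either sum. Cxcl10 had 78 and 1632 UMIs in the general capillaries, or 2.01 and 38.5 CPM.

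The JAK-STAT pathway carries signals of cytokine receptors to the nucleus, where its targets include the feedback inhibitor Socs3 and the Pim kinases. Among 36 measured genes of the list, 8 were at least 2-fold higher and none lower, with a median of 0.36. Over all measured genes 2.29% were at least 2-fold higher. In general capillary ECs 9 genes of the list were at least 2-fold higher, and its median was 0.41. Socs3 (chr11:117966079-117970047) was found in 181 control members (51.9%) and 308 B16-F10 members (84.4%). Its level was 168 CPM in the control and 537 CPM after B16-F10, a ratio of 1.68 (1.55 to 1.81). Bcl3, a nuclear IκB protein that binds p50 and p52, was in 61 and 215 members, with 24.6 and 122 CPM and a ratio of 2.30 (1.98 to 2.64). Cebpd, an acute-phase transcription factor, had 555 and 1570 CPM, and the median member held 4 of its UMIs in the control and 16 after B16-F10. Pim3, the kinase the study is about, had 173 and 430 CPM, a ratio of 1.32 (1.18 to 1.45), and was found in 69.3% and 86.0% of the members. The transcriptional repressor Bcl6 had 16.3 and 50.8 CPM. The receptors of the list gave smaller values. Il4ra, the interleukin-4 receptor chain, had a ratio of 1.25 (1.08 to 1.42) and Osmr, the oncostatin M receptor, one of 1.00 (0.78 to 1.23), from 65.3 and 131 CPM. Jak2 itself had 0.36 (0.09 to 0.64).

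The letters TTCNNNGAA, the core that activated STAT dimers bind, were searched in the 300 bases from 250 before to 50 after each gene start of RefSeq on GRCm38.p6. The motif reads the same on both strands. It was found in 8.30% of 32851 windows, in 629 of the 7738 measured genes with a window (8.13%), in 20 of 173 genes that were at least 2-fold higher (11.6%) and in 6 of 72 that were at least 2-fold lower (8.33%). In the JAK-STAT list 5 of 30 had it (16.7%). The windows of Socs3 (chr11:117969317-117969616, minus strand), Bcl6 (chr16:23988803-23989102, minus strand) and Sele (chr1:164047984-164048283, plus strand) are shown since each of these genes was at least 2-fold higher in the members and holds the motif, which is given in capitals.
Socs3: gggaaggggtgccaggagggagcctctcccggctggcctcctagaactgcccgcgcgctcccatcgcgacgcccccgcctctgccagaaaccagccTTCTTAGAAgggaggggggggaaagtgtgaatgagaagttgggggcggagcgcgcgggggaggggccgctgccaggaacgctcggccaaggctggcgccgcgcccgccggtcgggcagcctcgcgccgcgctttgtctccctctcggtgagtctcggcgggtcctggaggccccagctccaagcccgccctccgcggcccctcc
Bcl6: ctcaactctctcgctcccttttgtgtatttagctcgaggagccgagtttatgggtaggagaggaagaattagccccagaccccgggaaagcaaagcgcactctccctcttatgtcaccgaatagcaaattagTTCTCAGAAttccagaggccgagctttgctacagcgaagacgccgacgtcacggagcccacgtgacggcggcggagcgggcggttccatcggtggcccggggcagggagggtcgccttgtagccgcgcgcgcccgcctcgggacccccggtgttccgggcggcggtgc
Sele: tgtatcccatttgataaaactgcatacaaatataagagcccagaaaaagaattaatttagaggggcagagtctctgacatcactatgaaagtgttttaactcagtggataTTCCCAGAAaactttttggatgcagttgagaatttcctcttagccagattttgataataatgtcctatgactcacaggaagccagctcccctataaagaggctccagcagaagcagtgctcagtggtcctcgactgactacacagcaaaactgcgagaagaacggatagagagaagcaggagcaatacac
In Socs3 the motif begins 154 bases before the start, in Bcl6 118 bases and in Sele 140 bases before it. A window at another start of Bcl6 (chr16:23981234-23981533, minus strand) holds 3 matches, the first of them 168 bases before that start. A match is a description of the letters, and binding was not measured.

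NF-κB genes overlapped with this group through Bcl3. Of 35 measured, 9 were at least 2-fold higher, against 2.29% of all measured genes, and none lower, with a median of 0.54. In general capillary ECs 12 of them were at least 2-fold higher, with a median of 0.64. Il1r1, the signalling receptor for interleukin-1, had 306 UMIs in the control and 957 after B16-F10. It was in 49.6% and 76.2% of the members, at 84.7 and 231 CPM, a ratio of 1.45 (1.26 to 1.64). Cebpb, a partner of Cebpd, had a ratio of 1.49, the inhibitor Nfkbie one of 1.51, the atypical inhibitor Nfkbiz one of 1.20 and the RANK receptor Tnfrsf11a one of 1.57, the last from 15 and 51 UMIs.

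Immediate early genes are switched on without new protein synthesis and also respond to cell dissociation. Of 29 measured, 13 were at least 2-fold higher, against 2.29% of all measured genes, and none lower, with a median of 0.70. In general capillary ECs 15 of them were at least 2-fold higher, with a median of 1.20. Egr1 had 67.8 and 261 CPM, a ratio of 1.95 (1.74 to 2.15), and was present in 84 and 229 members. In the control 52 of its 245 UMIs came from 1 cell. Fos had 295 and 863 CPM, Atf3 16.3 and 77.6 CPM, and Gadd45g, a stress sensor, 25.8 and 127 CPM. Fos was found in 175 control members and 289 B16-F10 members.

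Clotting genes were mixed. Plaur, the urokinase receptor, had a ratio of 1.09, the thrombin receptor F2r 1.39 and the matrix protein Thbs1 1.51. Nt5e, the enzyme that makes adenosine outside the cell, was lower at -1.13 (-1.94 to -0.35), from 42 and 22 UMIs. Vwf stood at 2886 and 2939 CPM, a ratio of 0.03 (-0.01 to 0.06). In all, 5 of 22 measured genes were at least 2-fold higher, against 2.29% of all measured genes, and 1 lower, with a median of 0.09. In general capillary ECs 6 of them were at least 2-fold higher, with a median of 0.51.

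Acute-phase and complement genes gave 5 of 14 measured genes higher, against 2.29% of all measured genes, and 1 lower, with a median of 0.80. Lrg1, a secreted glycoprotein that modifies TGF-β signalling, was the most abundant, at 445 and 1197 CPM with a ratio of 1.43 (1.35 to 1.51), and was in 68.8% and 93.4% of the members. Serpina3g had 78.9 and 194 CPM and Il18bp, a decoy for interleukin-18, 12.5 and 33.8 CPM. Serpina3n had a ratio of 3.31, but from 6 and 68 UMIs in 4 and 14 members. Cd59a, an inhibitor of complement lysis, was lower at -1.05 (-1.45 to -0.66). In general capillary ECs 6 genes of this list were at least 2-fold higher, with a median of 0.68. Of 38 measured matrix genes 3 were at least 2-fold higher, against 2.29% of all measured genes, and none lower, with a median of 0.19. The 3 were the protease inhibitor Timp1 at 2.16, the basement membrane collagen Col15a1 at 1.99 and the protease Adamts9 at 1.62. In general capillary ECs 7 genes of the matrix list were at least 2-fold higher, with a median of 0.22.

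The study's list of reactive capillary genes was built in part on these same libraries, so its direction here is not independent evidence. Of 43 genes measured in the veins, 25 were at least 2-fold higher, against 2.29% of all measured genes. None was at least 2-fold lower, and 42 had an interval above 0. In the general capillaries 30 of them were at least 2-fold higher. The median ratio was 1.24 in the veins and 1.44 in the general capillaries. Cmah, which hydroxylates sialic acid, had 22.4 and 132 CPM in the veins, a ratio of 2.56 (2.22 to 2.92), and of 3.37 with every cell thinned to 3000 UMIs. Tmem173, the sensor adaptor STING, had 5.81 and 33.6 CPM and Mlec, a lectin of the endoplasmic reticulum, 8.58 and 46.2 CPM. Scarb1, a lipoprotein receptor, had a ratio of 1.32 and the glycolytic regulator Pfkfb3 one of 1.44. Among the other genes the study names, Col4a2 had 0.67, Mif 0.60, Vegfa 0.54, Esam 0.21 and Dll4 -0.31 (-0.90 to 0.28). Tmem252, a membrane protein on both this list of named genes and the study's vein list, had 208 and 684 CPM and was in 63.9% and 84.9% of the members.

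Several groups had medians near that of all measured genes, of which 2.29% were at least 2-fold higher and 1.08% at least 2-fold lower. None of 46 measured interferon genes passed 2-fold in either direction (median 0.11), a list that is the study's own, nor did any of 14 prostanoid and lipid mediator genes (0.10) or of 14 genes that handle amines and peptides (-0.17). Of 29 junction genes only the gap junction gene Gja4 did, at 1.24 (0.98 to 1.50). In 34 measured venous identity genes 2 were at least 2-fold higher, Selp and Il1r1, and none lower, with a median of 0.04. In general capillary ECs 7 genes of this list were at least 2-fold higher, with a median of 0.24. The study's own vein list gave 2 of 50 in the veins, Tmem252 and Lrg1, with a median of 0.04. In general capillary ECs it gave 10, with a median of 0.21. Within the identity genes the markers moved unequally. Slc6a2 had a ratio of -0.54 (-0.58 to -0.49), Mmp16 -0.40, Prss23 -0.32 (-0.37 to -0.26) and Amigo2 -0.13, while Tmem45a had 0.39, Ackr3 0.64 (0.55 to 0.72) and Nr2f2 0.23 (0.13 to 0.32).

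The lower genes were led by Aldh1a7, Cyp26b1 and Sult1a1, all enzymes that act on small molecules. Cyp26b1, which breaks down retinoic acid, had 318 UMIs in 122 control members and 82 UMIs in 52 B16-F10 members, or 88.1 and 19.8 CPM and a ratio of -2.15 (-2.52 to -1.80). Aldh1a7, an aldehyde dehydrogenase, had 72 and 13 UMIs, a ratio of -2.67 (-3.64 to -1.80). The sulfotransferase Sult1a1 had 80.9 and 18.9 CPM. Id2, an inhibitor of helix-loop-helix factors (chr12:25093799-25097140), had the most UMIs of the 12 lower genes that the naming rule gave. It was in 278 control members (79.7%) and 179 B16-F10 members (49.0%), at 277 and 90.7 CPM, a ratio of -1.61 (-1.79 to -1.44). The kinase Tnik had -1.88, and -1.24 without members holding 2 or more UMIs of other cells' markers, Lyve1 and red cell genes aside. The RNA-binding protein gene Celf2 had -1.69 and the heat shock gene Hspa1b -1.94. Its neighbour Hspa1a had -1.35, and the 2 are near-identical copies whose reads can be split between them.

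Among genes with few control UMIs, Rasd1 had 1 and 77 UMIs in 1 and 25 members, Fjx1 2 and 96 in 1 and 25, and the metallothionein Mt1 5 and 114 in 5 and 37. Olr1, a scavenger receptor for oxidised lipoproteins, had 1 and 69 UMIs, with 59.4% of the latter in 1 cell. Dct, a pigment enzyme of melanocytes, had 0 and 50 UMIs in 35 members, at least 14.6-fold higher against a floor of 3 counts, and belongs to the melanoma markers given below.

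**Figure D3:**
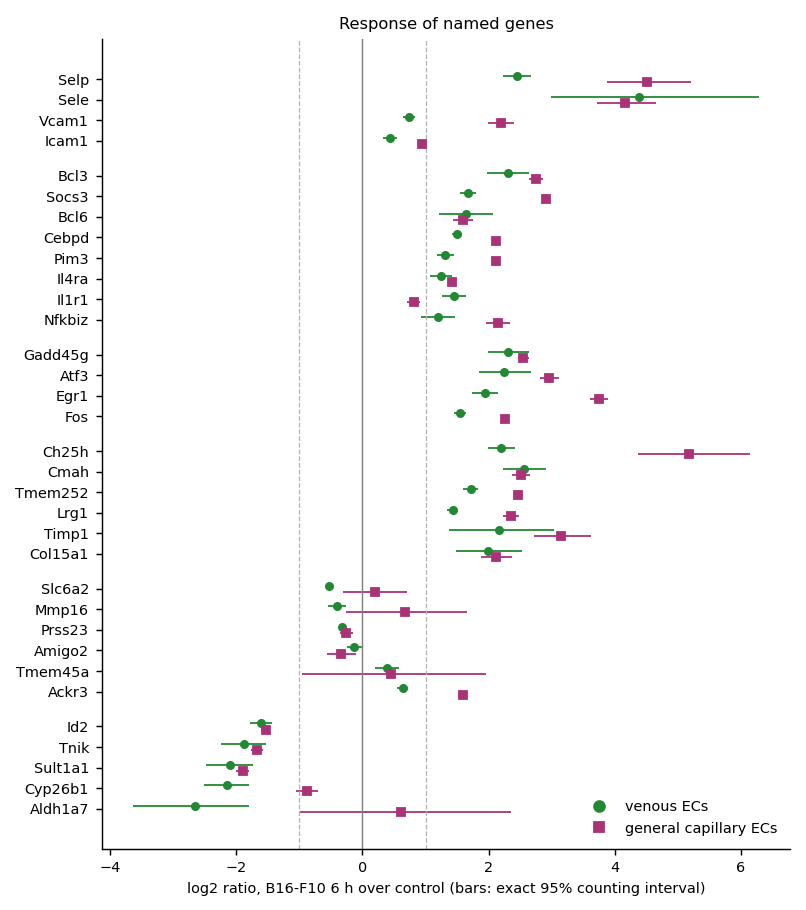
Log2 ratio of B16-F10 6 h over control for named genes in venous (circles) and general capillary (squares) ECs, with exact 95% counting intervals as bars and dashed lines at 2-fold. Selp, Vcam1, Socs3, Egr1, Ch25h and Lrg1 have larger ratios in the capillaries, Il1r1 has the larger ratio in the veins, and Cmah, Gadd45g, Col15a1 and Id2 overlap.

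The response of the veins was set against that of the general capillaries over 9717 genes measured in both. The difference of the log2 ratios was at least 1 in 72 genes (0.741%) and at most -1 in 94 genes (0.967%). For Ch25h the veins went from 58.4 to 270 CPM and the capillaries from 0.309 to 11.2 CPM, a difference of -2.98 (-3.83 to -2.12). Selp gave -2.06 (-2.73 to -1.40), with 12.3 CPM in the capillaries of the B16-F10 library. Both genes thus had the larger ratio in capillaries and the higher level in veins, in each library.

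Some genes differed only in the capillaries by the 2-fold rule. Akap12, a scaffold protein for protein kinase A, had 210 and 186 CPM in the veins and 233 and 1020 CPM in the capillaries, a difference of -2.30 (-2.45 to -2.15). Tuba1c, a tubulin, had 26 and 32 UMIs in the veins against 40 and 1160 in the capillaries, and Col18a1, a basement membrane collagen, 68 and 55 UMIs against 44 and 724. Myc was higher in both, with ratios of 1.58 in the veins and 5.43 in the capillaries. In the opposite direction, the fatty acid binding protein gene Fabp4 had 121 and 101 CPM in the veins and 454 and 45.1 CPM in the capillaries, a difference of 3.07 (2.87 to 3.28). In near-empty barcodes Fabp4 had 1413 and 166 CPM, and its part in the capillary value was not tested. Cdh13, a cadherin that binds adiponectin, had a ratio of 0.44 in veins and -1.32 in capillaries, and Cyp7b1, an oxysterol hydroxylase, 0.77 and -1.99.

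Il1r1 had the larger ratio in the veins, by 0.64 (0.43 to 0.85), and Tifa, an adaptor of NF-κB signalling, gave 1.51 (0.79 to 2.23). Cyp26b1 was lower in both, with the difference at -1.28 (-1.67 to -0.89). Lyve1, a hyaluronan receptor that lung blood vessels also make, had 2975 and 1894 CPM in the veins, a ratio of -0.65 (-0.69 to -0.61), and 0.08 in the capillaries. Arterial ECs, 196 and 156 cells, gave ratios of 1.76 for Socs3, 2.21 for Bcl3 and 1.44 for Pim3, near those of the veins, and 0.47 for Selp.

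**Figure D4:**
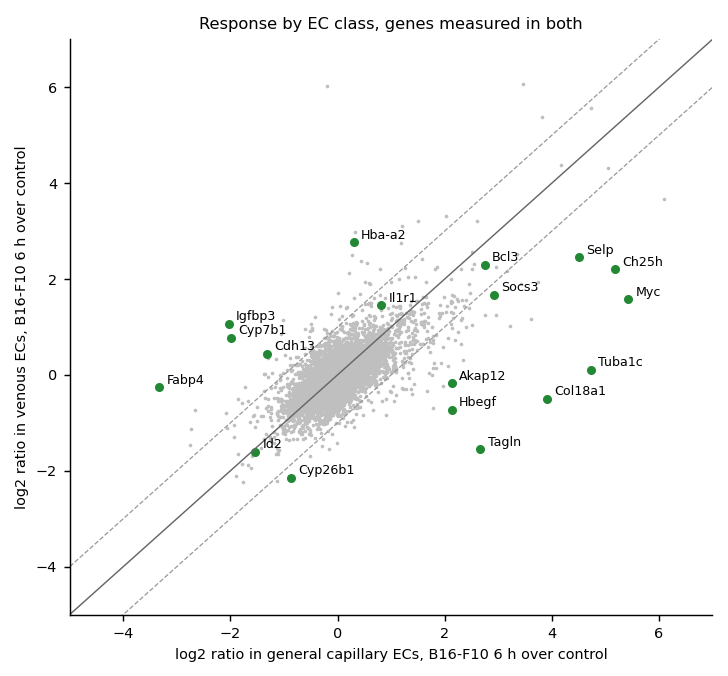
Log2 ratio of B16-F10 6 h over control in venous ECs against that in general capillary ECs for the 9717 genes measured in both, with the line of equal ratios and dashed lines 1 unit from it. Selp, Ch25h, Myc and Akap12 lie below the line, and Fabp4, Igfbp3, Cdh13 and the haemoglobin gene Hba-a2 above it.

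The members varied among themselves along their content of capillary genes. At 3000 UMIs the 8 general capillary markers, among them Gpihbp1, Kit, Lpl and Sema3c, had a median sum of 9 UMIs in control members. The members were divided there after the data had been seen, into 178 control and 211 B16-F10 members with a sum of 9 or less and 168 and 150 with a higher sum. The sum is a continuous range, and 96 control and 97 B16-F10 members lay within 2 UMIs of the division. Doublets, barcodes with more than 1 cell, were kept. The 6.39% of control and 5.79% of B16-F10 cells with the highest doublet scores included 9.74% and 9.86% of the members. The part of doublets in the capillary sum was not tested. Members with the lower sum held Cpe in 66.3% of control cells against 19.0% of those with the higher sum, and in 68.7% against 23.3% after B16-F10. Mgp, an inhibitor of calcification, was found in 50.0% against 15.5% of control members, and Vcam1 in 55.6% against 21.4%. Ephb4, a receptor that marks veins, was in 54.5% and 51.2%.

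Selp was found mostly in the members with the lower capillary sum. It was found in 14.6% of them in the control (9.77 to 20.7) and in 37.9% after B16-F10 (31.3 to 44.8). Of the members with the higher sum it was found in 0.595% in the control (0.0151 to 3.27) and in 8.67% after B16-F10 (4.70 to 14.4). The log2 ratio was 2.65 (2.18 to 3.15) in the former, from 42 to 312 UMIs, and 4.75 (2.13 to 10.1) in the latter, from 1 to 24 UMIs. The intervals overlap. For Socs3 and Bcl3 the intervals of the shares overlapped between the ends. Socs3 was in 31.5% and 25.6% of control members and in 63.5% and 66.7% after B16-F10. Bcl3 was in 7.87% and 5.95% of control members and in 23.7% and 31.3% after B16-F10. Ch25h was more frequent at the lower capillary sum, with 46.9% (40.0 to 53.9) against 30.7% (23.4 to 38.7) after B16-F10. Lrg1 was in 57.9% (50.3 to 65.2) against 41.7% (34.1 to 49.5) of control members and in 78.7% against 75.3% after B16-F10. The list medians at each end, over genes with at least 20 UMIs there, were 0.88 and 0.97 for the reactive capillary genes and 0.43 and 0.61 for the NF-κB genes, the lower capillary sum given first. For immediate early genes they were 0.67 and 1.00.

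**Figure D5:**
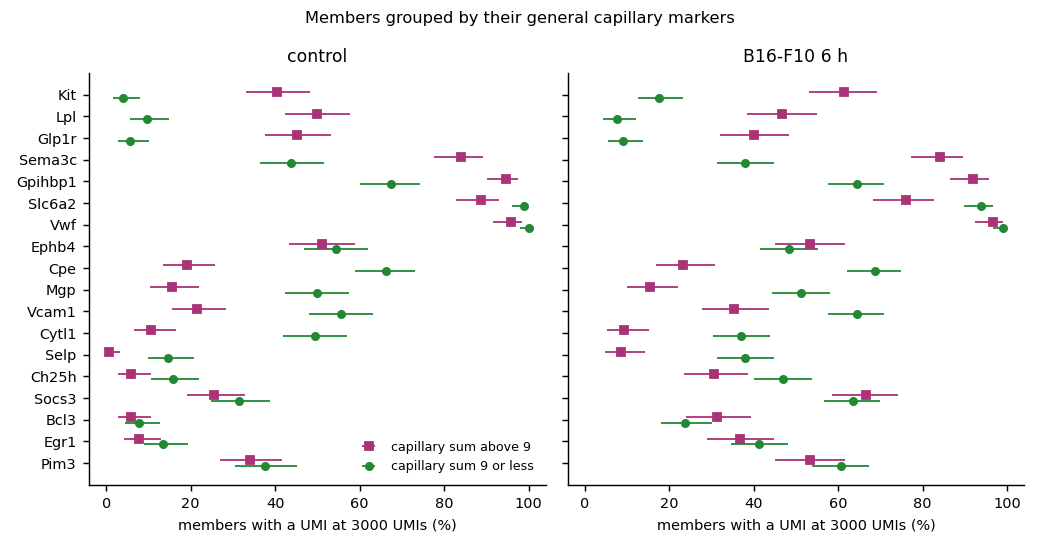
Share of members with a UMI of each gene after thinning to 3000 UMIs, by library, for members whose capillary sum was above 9 (squares) and 9 or less (circles), with exact 95% binomial intervals. Kit, Lpl, Glp1r, Sema3c and Gpihbp1 formed part of the sum. Cpe, Mgp, Vcam1, Cytl1 and Selp are more frequent in members with the lower sum in both libraries, while Socs3, Bcl3 and Pim3 overlap.

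Kit, the receptor for stem cell factor and one of the capillary markers, was found in 37.5% of control and 58.9% of B16-F10 members. Its level was 137 and 257 CPM, a ratio of 0.91 (0.75 to 1.06), against 868 and 939 CPM and 0.11 in the capillaries. At 3000 UMIs it was present in 3.93% of control members and 17.5% of B16-F10 members with the lower capillary sum. Since Kit is part of that sum, the grouping limits its shares there. The 8 capillary markers together stood at 3733 and 3157 CPM in the veins and at 7699 and 6179 CPM in the capillaries. Kit, Gpihbp1, Glp1r and Lpl also chose the capillary class, so the size of these gaps follows in part from the rules.

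Genes listed as markers of other cells were present in most members. Only 125 control and 70 B16-F10 members held fewer than 2 UMIs of mural, fibroblast, leukocyte, platelet, epithelial, melanoma and lymphatic markers together, Lyve1 aside. The red cell genes were not part of that count. The 4 red cell genes had a UMI in 99.4% and 99.7% of the members and in 99.4% and 99.9% of the capillary cells. They summed to 531 and 2957 CPM in the members, the latter with the haemoglobin-rich cell described above. Of 10 leukocyte markers 1 was measured, and the list summed to 10.2 CPM in the control and 31.7 CPM after B16-F10, with 38.5 and 126 CPM in the capillaries. The 5 platelet markers summed to 28.8 and 32.4 CPM and the 7 fibroblast markers to 7.48 and 41.3 CPM. Of the 10 mural markers, which summed to 165 and 110 CPM, Rgs5 made up 78.4 and 44.2 CPM. Rgs5 was found in 126 control and 100 B16-F10 members, and counted towards the limit of 2 UMIs above. Its level was 5.85 and 3.19 CPM in the capillaries and 8.46 and 3.5 CPM in the near-empty barcodes. Whether the members made Rgs5 themselves was not tested. Tagln, a contractile protein of smooth muscle, had 228 and 89 UMIs in 25 and 26 members, 98 of the 228 in 1 cell. The 7 epithelial markers summed to 185 and 150 CPM. The 7 melanoma markers had 3 control UMIs and 122 B16-F10 UMIs, in 24.4% of B16-F10 members and in 24.2% of general capillary cells, and at most 8 in a member. Near-empty barcodes held 12.3 and 948 CPM of them. The epithelial and red cell genes in members came to 1.18% and 0.931% of their level in the near-empty barcodes in the control, and to 1.93% and 1.88% after B16-F10, leaving out cells with over 50 UMIs of a list. For the melanoma markers these shares were 6.73% in the control, from 3 UMIs, and 3.11% after B16-F10. With the near-empty profile subtracted from the sums, 227 genes were at least 2-fold higher and the ratio of Selp was 2.48. The part of the other cells in the ratios was not tested.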

How the data were processed

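The authors deposited raw UMI counts per gene and barcode for all barcodes. The submitters' processing notes name Cell Ranger 7.2.0, Seurat 4.4.0 and mm10, while the study's methods name an earlier Cell Ranger. Whether introns were counted is not given in the sources used here. Members and gene lists were chosen with earlier results of these data known.

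Counts were summed over members, scaled to CPM, and compared as log2 ratios with exact conditional binomial 95% intervals. A gene counted as measured from 50 UMIs in the 2 sums together, and 2-fold was the size rule. Shares have Clopper-Pearson intervals, the difference of shares a Newcombe interval, and differences of log2 ratios a log-normal one. A group at 0 was set to a floor of 3 counts over its sum. Near-empty barcodes held at most 100 UMIs. Doublets were kept. The interval code was tested on simulated data. Python 3.11.15, numpy 2.4.6, scipy 1.17.1, pandas 2.3.3 and scanpy 1.11.5 were used.

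Named genes were the rule's genes and markers, the 12 highest and 12 lowest by the interval bound nearest 0, up to 6 past 2-fold per list with the genes the study names, the 10 farthest above and below the capillary response, and the 15 highest over capillaries. Gene positions come from GENCODE M21 on GRCm38. Alternatives changed the thresholds, the depth, the scaling, the gene minimum, the comparison cells and the treatment of doublets, free RNA and outlying cells. A gene that the naming rule gave is not reported here.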

Additional observations from a re-analysis of the deposited data

Results flagged for a closer look

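For 3 genes the log2 ratio passed 2-fold in opposite directions in venous and general capillary ECs, and the difference was not tested. Ebf1, a transcription factor, had 1.15 in the veins and -1.01 in the capillaries, with 62.2% of the B16-F10 venous UMIs in 1 cell and a venous ratio of -0.13 without the highest cells. Igfbp3, a binding protein for insulin-like growth factors, had 1.06 and -2.03, from 18 and 43 venous UMIs in 7 and 10 members. Tagln had -1.55 and 2.67, from 25 and 26 members. In near-empty barcodes, which were used here only for the level of free RNA and its subtraction, the 7 melanoma markers stood at 12.3 CPM in the control and 948 CPM in the B16-F10 library, to which melanoma cells had been added.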

How the results depend on the processing

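Each library was 1 pool, so no spread between mice could be measured and depth limits low genes. No paired analysis was possible because neither group held more than 1 library. Over 19 alternatives, of which 3 that give ratios or counts were chosen after seeing the data, 300 values for the comparisons stayed near the reported ones, 21 moved and 2 changed direction, and the cause was not tested. The difference in share was -0.276 percentage points at 3000 UMIs. It was -0.593 without members holding 2 or more UMIs of other cells' markers, Lyve1 and red cell genes aside. At 3000 UMIs 95 genes were higher, 66 lower, 39 above and 48 below the capillary response, and 95 rather than 156 were at least 8-fold over capillaries. Without the members holding other cells' markers, Lyve1 and red cell genes aside, 109 were higher, and 96 were at least 8-fold over capillaries. With no upper limit of genes 143 were below the capillary response. A minimum of 20 UMIs gave 383 higher, 237 lower, 227 above and 179 below. A minimum of 100 gave 129, 58, 40 and 50. With no minimum but 1 UMI per library they were 959, 923, 932 and 832, and 313 were at least 8-fold over capillaries. Of the values for single genes 421 stayed near the reported ones, 13 moved and none changed direction. Scrublet's own threshold marked 1.13% and 0.471% of cells, so the top 6.39% and 5.79% by score were left out instead. Leaving out members with other cells' markers, Lyve1 included and red cell genes aside, left 1 control and 0 B16-F10 members and gave no value.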

Other observations

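Stress genes were mixed in the veins. Of 24 measured genes of this list 2 were at least 2-fold higher, the metallothionein Mt1 and the quinone reductase Nqo1 at 1.06. Another 2 were at least 2-fold lower, Hspa1a and Hspa1b, and the median was -0.01. Over all measured genes 2.29% were at least 2-fold higher and 1.08% at least 2-fold lower. In general capillary ECs the median was 0.27. Ackr3 had a ratio of 1.59 in the capillaries and 0.64 in the veins, while its level was higher in the veins of both libraries.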
